A study of Mus musculus with 6 samples.

Results

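The dystrophin-glycoprotein complex of skeletal muscle was described through 8 of its genes, *Dmd*, *Utrn*, *Dag1*, *Sgca*, *Sgcb*, *Sgcd*, *Dtna* and *Sspn*, which were chosen by name and are 8 of the 22027 genes in the deposited table. All 8 passed the filter on low counts and were among the 12322 genes tested. RNA-seq was carried out on GAS (gastrocnemius) muscle of 3 mKD and 3 WT mice, with 1 poly(A)-selected, strand-specific library per mouse. The mKD mice are the muscle *Tet3* knockout of the study, made by crossing *Tet3* fl/fl mice with HSA-Cre79 mice, and the WT mice were their floxed littermates, so the floxed *Tet3* alleles are common to both groups. All mice were female, 14 weeks old and fed regular chow. The HSA promoter drives Cre in skeletal muscle fibres, so the vessels, nerves and connective tissue in a whole muscle keep their *Tet3*. A time of 48 h stands in the labels as well and is not explained there or in the methods.

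The complex links the actin cytoskeleton inside the muscle fibre to the basement membrane outside it and protects the cell membrane during contraction. Dystrophin binds actin on the inside and β-dystroglycan in the membrane, α-dystroglycan binds laminin outside through its sugar chains, and the sarcoglycans and sarcospan form a subcomplex that stabilises this link. Dystrobrevin and the syntrophins sit beneath the membrane on dystrophin and hold neuronal nitric oxide synthase there. Loss of dystrophin causes Duchenne muscular dystrophy, and loss of sarcoglycans causes forms of limb-girdle muscular dystrophy.

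*Tet3*, the targeted gene, encodes the enzyme that turns methylated cytosine of DNA into its oxidised forms (GRCm38, chr6:83362373-83459084). It had normalised counts of 425, 318 and 472 in the mKD libraries and 594, 536 and 708 in the WT libraries, without overlap (log2 fold change -0.60, standard error 0.18, adjusted p = 0.18, limma). Depth was 29225213, 32148270 and 28050939 reads in mKD libraries 1, 2 and 3. In WT libraries 1, 2 and 3 it was 16219227, 26296469 and 26705724 reads, so WT library 1 was the shallowest. The summed markers of muscle fibres (*Acta1*, *Ckm*, *Mb* and 7 more) came to 4223891 to 4970296 normalised counts in mKD and 4274371 to 5200760 in WT, so the defining genes of the labelled tissue were present in all 6 libraries. The 12 Schwann cell and nerve markers (*Mbp* and 11 more) summed to 38725, 1843 and 11914 in mKD libraries 1, 2 and 3 and to 2420 to 2501 in WT, so mKD libraries 1 and 3 stand apart, and results are also given without them. Genes with long transcripts had lower counts in mKD as a class, with a median log2 fold change of 0.31 in the 10% of genes with the shortest transcripts and -0.32 in the 10% with the longest (Spearman rho -0.45 across 12315 genes, which are not independent replicates). Members are therefore also given with this length trend removed from each library by a lowess curve over the longest annotated transcript, or over the median transcript where named. *Tet3* itself was at -0.22 with the trend removed.

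*Sgcd* fell to 0.537 times its WT level in mKD muscle and *Sgca* was 1.24-fold higher, and these were the 2 members of 8 that passed the 1.2-fold cut-off of the study with unadjusted p under 0.05. That is 1 member higher and 1 lower, where 17.8% of all genes tested passed, 8.31% higher and 9.51% lower. No member passed an adjusted p of 0.05 in limma (0 of 8, against 0.0162% of all genes, with 2 of 8 at an unadjusted p under 0.05), and DESeq2 on the recovered reads passed 1, *Sgcd*, where it called 4.91% of the 10886 genes it gave an adjusted p. The median log2 fold change of the 8 members was -0.17, against 0.0096 over all genes tested. With the length trend removed these medians were 0.10 for the members and 0.013 for all genes, and 1 member (*Sgcd*) passed, where 10.5% of all genes did, 5.05% higher and 5.45% lower. For 4 members mKD and WT libraries lay apart with no overlap, *Sgca* higher and *Dag1*, *Sgcd* and *Sspn* lower in mKD, where 24.8% of all genes tested lay apart in this way, 12.1% higher and 12.7% lower. Without mKD libraries 1 and 3 again 1 member passed, *Utrn*, where 9.68% of all genes did. Summed over the 8 members, the libraries held 24225 to 24689 normalised counts in mKD and 24448 to 26156 in WT, which overlap.

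**Figure D1:**
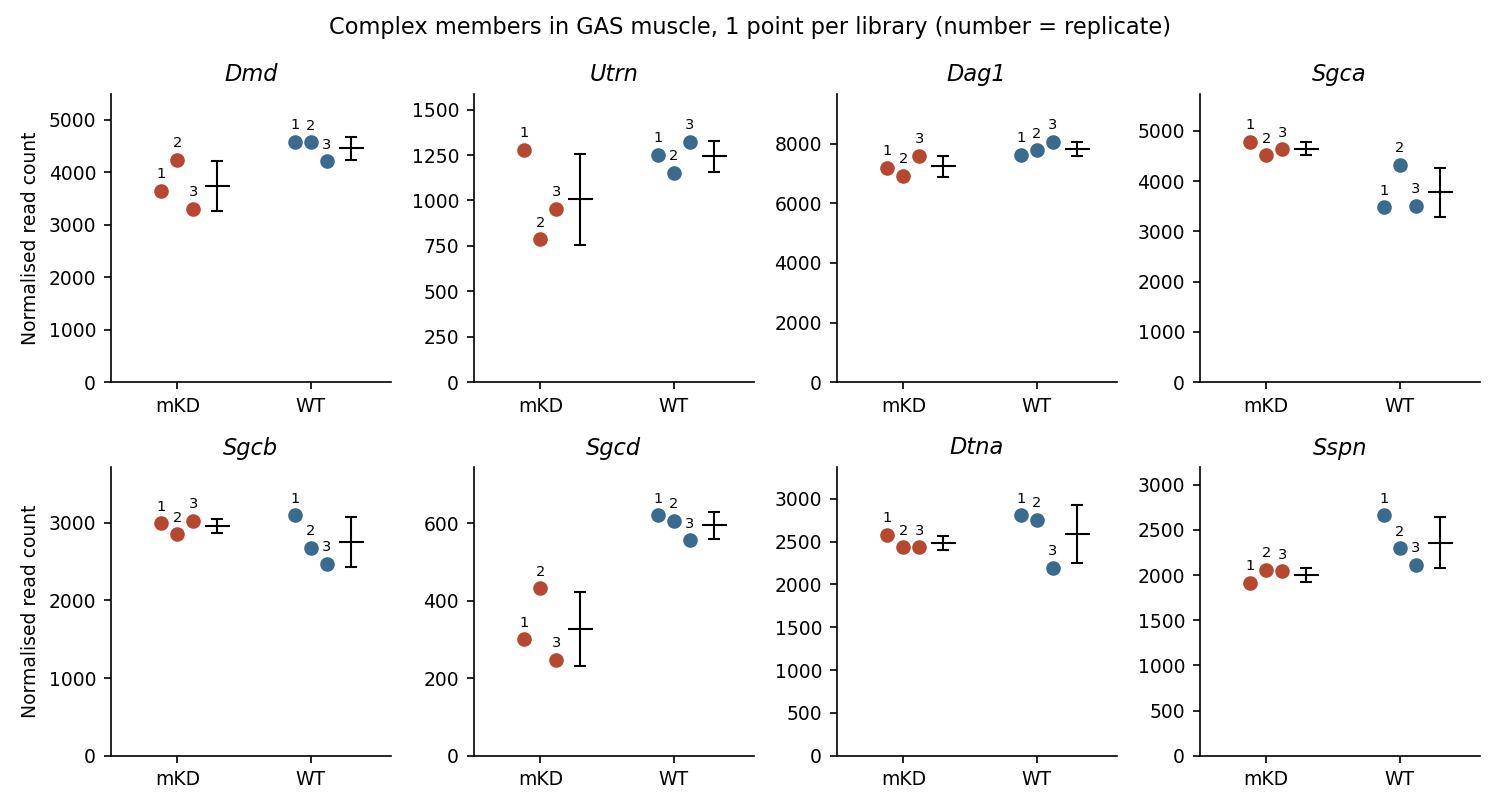
Normalised read count of each of the 8 members (y axis, starting at 0) in the 3 mKD and 3 WT libraries, 1 point per library with its replicate number, and beside them the mean with 1 SD as a bar. *Sgcd* lay between 248 and 433 in mKD, below the 556 to 621 of WT, and *Sgca* lay between 4516 and 4783 in mKD, above the 3480 to 4324 of WT.

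The sarcoglycans form a tight group in the muscle membrane, with α-sarcoglycan (*Sgca*) made in striated muscle and δ-sarcoglycan (*Sgcd*) also in vascular smooth muscle. *Sgcd* (chr11:46896253-47988969, minus strand) had 301, 433 and 248 normalised counts in mKD and 621, 606 and 556 in WT. The mKD libraries were all below the WT libraries, with library 2 the highest of the mKD group (two-sided exact permutation test, p = 0.10, the lowest p this design can give). The mean was 327 ± 95.2 (SD, n = 3) in mKD and 594 ± 34.0 (SD, n = 3) in WT. Its log2 fold change was -0.90 (standard error 0.20, 95% interval -1.37 to -0.42, unadjusted p = 0.0025, adjusted p = 0.13 from limma), and adjusted p ran from 0.0125 with DESeq2 to 0.53 over 18 alternatives. It was -0.82 with the length trend removed and stayed past the cut-off in 17 of 18 alternatives, the exception being the fit without mKD libraries 1 and 3, where it was -0.46 (unadjusted p = 0.055). Smooth muscle and pericyte markers (*Acta2*, *Myh11*, *Tagln* and 7 more) were lower in mKD. They summed to 16040, 18458 and 18641 in mKD libraries 1, 2 and 3 and to 25132 to 26071 in WT. Within mKD, *Sgcd* was lowest in library 3, where this sum was highest. Of the 10 markers 5 fell and 1 rose, where 9.51% and 8.31% of all genes tested did, and no marker was at 0. With the length trend removed 3 fell, and the list's median log2 fold change went from -0.50 to -0.25. The part of these cell types in the *Sgcd* difference was not tested, and in bulk tissue fewer cells of a type and less RNA per cell cannot be told apart.

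*Sgca* (chr11:94962791-94976327, minus strand) had 4783, 4516 and 4631 normalised counts in mKD and 3480, 4324 and 3513 in WT. The mKD libraries lay close together above all WT libraries, of which WT library 2 came nearest (exact permutation test, p = 0.10). The mean was 4643 ± 134 (SD, n = 3) in mKD and 3772 ± 478 (SD, n = 3) in WT, with a log2 fold change of 0.31 (95% interval 0.04 to 0.58, standard error 0.12) and a limma adjusted p of 0.24. At 1724 nucleotides its longest transcript is the shortest of the 8 members, and with the length trend removed the log2 fold change was 0.11 and the call was lost. *Hils1*, which overlaps it on the other strand, had 0 counts in all 6 libraries. The call also rested on single libraries: with an unadjusted p of 0.030 on all 6, it was lost when mKD library 1, 2 or 3 or WT library 1 or 3 was left out (0.25 to 0.33, unadjusted p = 0.052 to 0.092) and was kept only without WT library 2 (0.41, unadjusted p = 0.0075). Without mKD libraries 1 and 3 together it was 0.27 (unadjusted p = 0.22).

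*Sgcb* (chr5:73632749-73647790, minus strand), which encodes β-sarcoglycan, had 2996, 2853 and 3024 normalised counts in mKD and 3100, 2678 and 2474 in WT. The groups overlapped, since WT library 1 was the highest of the 6. Its log2 fold change was 0.11 (95% interval -0.15 to 0.37, adjusted p = 0.63 from limma) and did not pass the cut-off in any of 18 alternatives. It ran from 0.04 without WT library 3 to 0.20 without WT library 1, and was 0.06 without mKD libraries 1 and 3. *Sgce*, for ε-sarcoglycan, which takes the place of the α subunit in other tissues, had 205, 182 and 175 in mKD and 152, 156 and 129 in WT. These did not overlap, but the log2 fold change of 0.36 (standard error 0.17, unadjusted p = 0.064) missed the threshold and passed it only with the length trend removed (0.43, unadjusted p = 0.031). *Sgcz*, for ζ-sarcoglycan, had 0 counts in all 6 libraries and was not tested. Of the 3 sarcoglycan genes among the members, *Sgcd* alone passed the cut-off downwards and *Sgca* alone upwards; the difference between them in fold change was not tested.

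The promoter windows of *Sgcd* and *Sgca* are shown because these are the members that passed the cut-off, in opposite directions, and because TET3 acts on methylated cytosine, which in mammals lies mostly in CG pairs. The sequences are RefSeq's for GRCm38.p6, from 250 bases before the annotated start to 50 bases after it, 5′ to 3′ on the gene's own strand. Each E-box (CANNTG, a motif not limited to the myogenic MyoD family) is in capitals. RefSeq windows of 7 of the 8 members were used, 10 windows in all, and 1 is shown for each of *Sgcd* and *Sgca*. No window of *Dtna* was used, so its promoter is not described here. *Sgcd*: chr11:47379276-47379575, minus strand. *Sgca*: chr11:94976278-94976577, minus strand.
Sgcd: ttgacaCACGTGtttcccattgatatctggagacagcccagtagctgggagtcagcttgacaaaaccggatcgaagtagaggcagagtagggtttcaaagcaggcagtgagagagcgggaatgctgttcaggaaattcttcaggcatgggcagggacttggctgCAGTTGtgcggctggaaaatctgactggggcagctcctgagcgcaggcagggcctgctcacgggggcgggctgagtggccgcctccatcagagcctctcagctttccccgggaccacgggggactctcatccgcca
Sgca: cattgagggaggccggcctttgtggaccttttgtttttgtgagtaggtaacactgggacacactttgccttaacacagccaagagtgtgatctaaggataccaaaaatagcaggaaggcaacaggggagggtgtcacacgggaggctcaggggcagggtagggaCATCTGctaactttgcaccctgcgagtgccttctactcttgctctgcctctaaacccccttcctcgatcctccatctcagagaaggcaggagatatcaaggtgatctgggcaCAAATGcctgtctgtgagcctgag
The *Sgcd* window, which stands at a RefSeq start inside the longer GENCODE gene, holds 12 CG pairs, against a median of 7 over 32851 promoters of the same length. It has 2 E-boxes, 1 GC box (GGGCGG) and 1 MCAT element (CATTCC), which do not overlap each other. The *Sgca* window has 4 CG pairs and 2 E-boxes and no GC box or MCAT element. On either strand an E-box occurs in 72.3% of all promoters, a GC box in 35.7% and an MCAT element in 14.7%, so the matches are common ones. Among the other windows used, CG pairs ran from 2 (*Utrn*, and 1 window each of *Dmd* and *Sspn*) to 47 (*Dag1*). The *Utrn* window (chr10:12861686-12861985), like that of *Sgcd*, stands at a RefSeq start inside the longer GENCODE gene. DNA methylation was not measured in this experiment.

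*Dmd* and *Utrn* encode dystrophin and its paralogue utrophin, which in mature fibres gathers at the neuromuscular junction and is also made in vessels and nerve. *Dmd* (chrX:82948870-85206141, plus strand) had 3645, 4240 and 3301 normalised counts in mKD and 4581, 4569 and 4202 in WT. Only mKD library 2 reached the WT range, just above WT library 3. The mean was 3729 ± 475 (SD, n = 3) in mKD and 4451 ± 215 (SD, n = 3) in WT, a log2 fold change of -0.26 (95% interval -0.54 to 0.02, standard error 0.12, limma adjusted p = 0.30), which did not pass. With 14910 nucleotides its longest transcript is the longest of the 8, and the sign turned with the length trend removed (0.20, 95% interval -0.10 to 0.50), though not with the median transcript as the length (-0.22). Without mKD library 2 it passed the cut-off (-0.36, unadjusted p = 0.020), while it was -0.18 without mKD library 3 (unadjusted p = 0.19) and -0.07 without mKD libraries 1 and 3.

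*Utrn* (chr10:12382188-12869365, minus strand) had 1279, 785 and 953 normalised counts in mKD and 1251, 1154 and 1324 in WT. Library 1 of mKD was level with WT while libraries 2 and 3 were below it. The mean was 1006 ± 251 (SD, n = 3) in mKD and 1243 ± 85.4 (SD, n = 3) in WT, a log2 fold change of -0.33 (95% interval -0.75 to 0.08, standard error 0.18, limma adjusted p = 0.36), which did not pass. It turned to 0.08 with the length trend removed and was -0.25 with the median transcript, and it passed the cut-off without mKD library 1 (-0.52, unadjusted p = 0.0095) and without libraries 1 and 3 (-0.66, unadjusted p = 0.010). Without mKD library 2, the lowest of the 6, it was -0.17 (unadjusted p = 0.34). Within mKD, *Utrn* was thus highest in the library with the most Schwann cell and nerve marker counts and lowest in the one with the fewest. This order did not extend to WT, where the nerve sums were only 2420 to 2501 and *Utrn* was at 1154 to 1324. Endothelial markers (*Pecam1*, *Cdh5*, *Kdr* and 9 more) summed to 9014, 11311 and 10257 in mKD libraries 1, 2 and 3 and to 14004 to 15823 in WT. Within mKD this sum ran the other way, lowest in library 1 and highest in library 2. Of the 12 markers 7 fell, where 9.51% of all genes tested did, none rose and none was at 0. With the length trend removed 5 fell, where 5.45% of all genes did. The part of either cell type was not tested. The ratio of *Utrn* to *Dmd* within a library was 0.351, 0.185 and 0.289 in mKD and 0.273, 0.252 and 0.315 in WT. The mKD libraries held both the highest and the lowest ratio, and the means were 0.275 ± 0.084 (SD, n = 3) in mKD and 0.280 ± 0.032 (SD, n = 3) in WT.

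**Figure D2:**
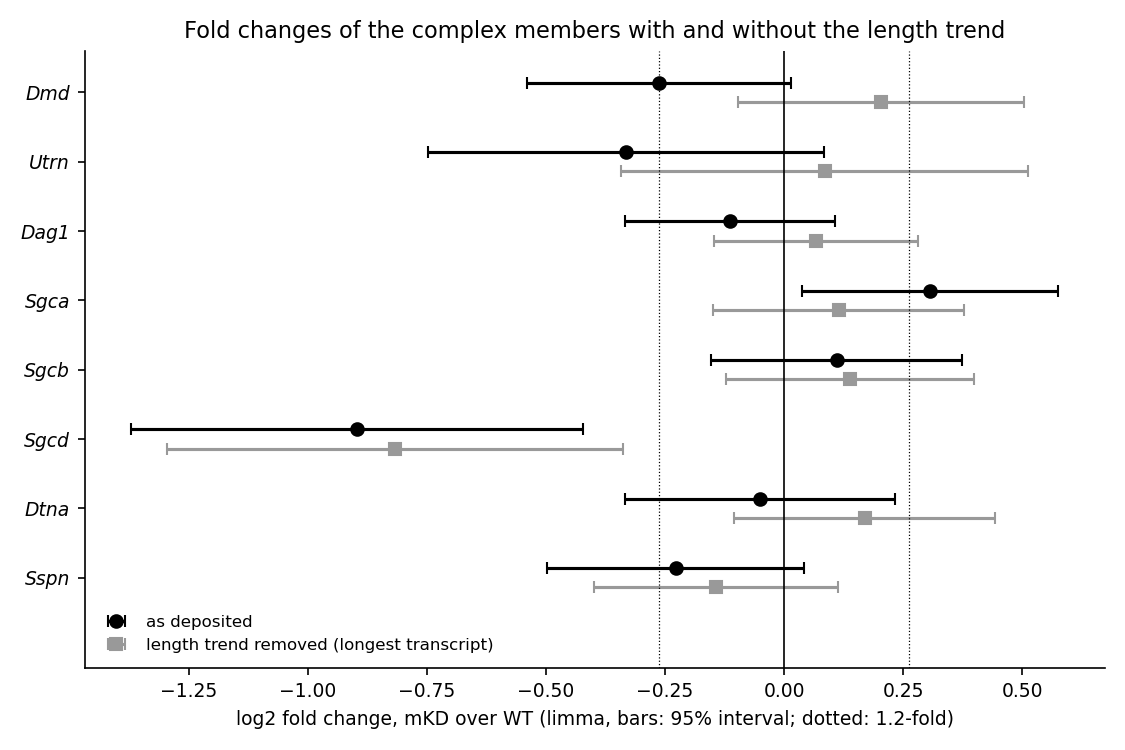
The log2 fold change, mKD over WT, of the 8 members (x axis), with 95% intervals from limma, as deposited (black circles) and with the length trend of the longest transcript removed (grey squares). Dotted lines mark 1.2-fold; *Sgcd* stayed below its line in both fits (-0.90 and -0.82), while *Dmd*, *Utrn*, *Dag1* and *Dtna* changed sign.

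*Dag1* encodes the precursor that is cut into α- and β-dystroglycan, the receptor of the complex (chr9:108204634-108263958, minus strand). It had 7190, 6922 and 7594 normalised counts in mKD and 7625, 7774 and 8069 in WT. The groups did not overlap, by a margin of mKD library 3 below WT library 1 that is small beside the spread in either group. The mean was 7235 ± 338 (SD, n = 3) in mKD and 7823 ± 226 (SD, n = 3) in WT, a log2 fold change of -0.11 (95% interval -0.33 to 0.11, adjusted p = 0.56 from limma). It did not pass, and its sign turned with the length trend removed (0.07, or 0.10 with the median transcript). It was -0.18 without mKD libraries 1 and 3 (unadjusted p = 0.32).

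*Sspn* encodes sarcospan, a small protein with 4 membrane spans that binds the sarcoglycans (chr6:145931641-145965223, plus strand). It had 1916, 2058 and 2042 normalised counts in mKD and 2664, 2297 and 2114 in WT. All mKD libraries were below all WT libraries, of which WT library 3 came nearest. The mean was 2005 ± 77.9 (SD, n = 3) in mKD and 2359 ± 280 (SD, n = 3) in WT, a log2 fold change of -0.23 (95% interval -0.50 to 0.04, standard error 0.12, limma adjusted p = 0.34), which did not pass. It was -0.14 with the length trend removed and -0.0010 with the median transcript, and it passed the cut-off only without WT library 3 (-0.30, unadjusted p = 0.036). Without WT library 1, the highest of the 6, it was -0.14 (unadjusted p = 0.25), and without mKD libraries 1 and 3 it was -0.19 (unadjusted p = 0.36).

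*Dtna* encodes α-dystrobrevin, which binds dystrophin and the syntrophins (chr18:23415135-23659715, plus strand). It had 2579, 2436 and 2433 normalised counts in mKD and 2808, 2754 and 2196 in WT, so the mKD libraries lay inside the WT range. The log2 fold change was -0.05 (95% interval -0.33 to 0.23, adjusted p = 0.86 from limma), and it turned positive with the length trend removed (0.17, or 0.02 with the median transcript) and without WT library 1 (0.01). It was -0.08 without mKD libraries 1 and 3. *Dtnb*, for β-dystrobrevin, was scarce, at 22.5, 2.42 and 16.0 in mKD and 9.50, 15.0 and 14.9 in WT, with a log2 fold change of -0.32 whose standard error of 0.82 leaves no direction.

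**Figure D3:**
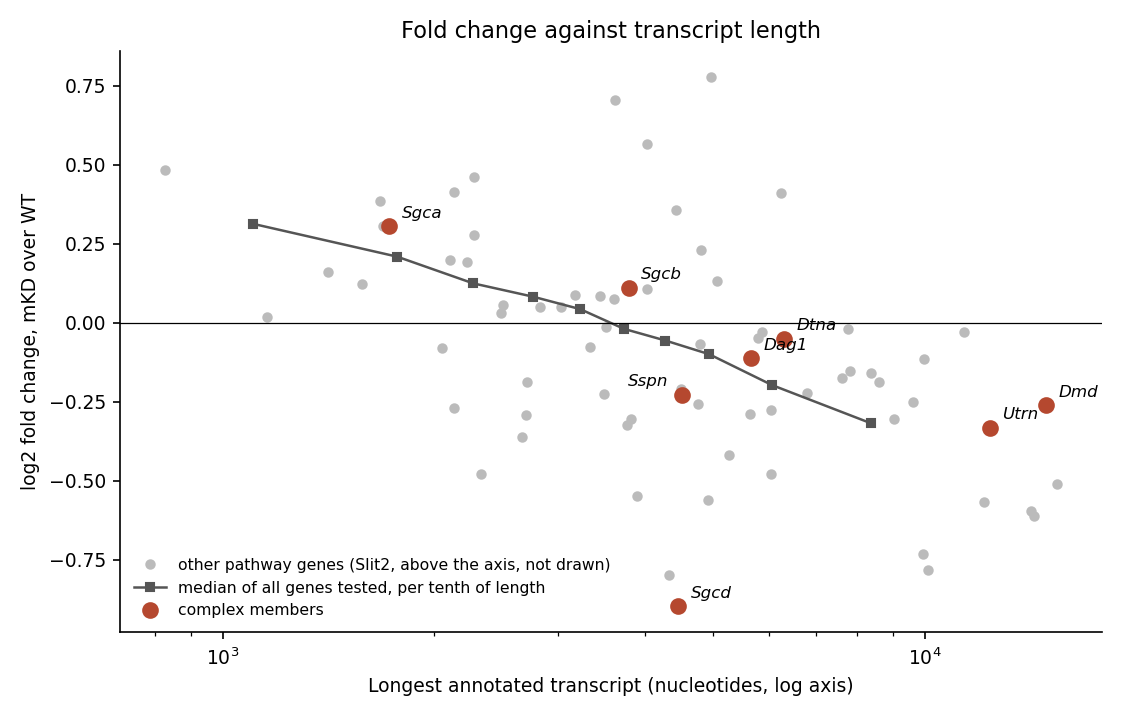
The log2 fold change, mKD over WT (y axis), against the longest annotated transcript in nucleotides (x axis, logarithmic) for the 8 members (red), the other pathway genes tested (grey, *Slit2* lying above the axis) and the median of all genes tested in each of 10 classes of length (squares). The median line falls from 0.31 to -0.32, most members lie near it, and *Sgcd* (-0.90 at 4453 nucleotides) lies far below it.

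Levels between genes were compared only per kilobase of the longest annotated transcript. In WT the order was *Sgca* (2188 normalised counts per kilobase), *Dag1* (1382), *Sgcb* (727), *Sspn* (523), *Dtna* (411), *Dmd* (299), *Sgcd* (133) and *Utrn* (100), and no neighbours in this order overlapped between libraries. In mKD the first 6 kept their order, from *Sgca* at 2693 to *Dmd* at 250, again without overlap of neighbours. *Utrn* (81.2, from 63.4 to 103) and *Sgcd* (73.4, from 55.6 to 97.1) overlapped in mKD and did not differ beyond their spread. The scale rests on which transcript is counted: over the median of its 14 annotated transcripts *Dmd* had 1868 counts per kilobase in mKD and 2230 in WT, above *Dag1* (1705 in mKD and 1843 in WT). On the same scale *Utrn* (432 in mKD and 534 in WT) was above *Sgcd* (161 in mKD and 292 in WT), so their order in WT turned.

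Of 21 other subunits and proteins bound to the complex inside the fibre, 17 were tested, 1 rose and 4 fell (*Nos1*, *Sntb2*, *Plec* and *Sync*). The median log2 fold change was -0.21 (-0.13 with the length trend removed, 1 higher and 3 lower). For this list and those below, 8.31% of all genes tested rose and 9.51% fell (5.05% and 5.45% with the length trend removed). *Nos1* encodes neuronal nitric oxide synthase, whose product raises blood flow in working muscle, and had 900, 1081 and 1066 normalised counts in mKD and 1679, 1864 and 1692 in WT. All mKD libraries were far below all WT libraries. Its log2 fold change was -0.78 (standard error 0.12, unadjusted p = 1.7e-04, adjusted p = 0.081 from limma), -0.42 with the length trend removed and -0.69 without mKD libraries 1 and 3, and it passed the 1.2-fold cut-off in all 18 alternatives (adjusted p from 2.5e-05 with DESeq2 to 0.43).

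*Sntb2*, for β2-syntrophin, had 115, 106 and 120 normalised counts in mKD and 212, 172 and 186 in WT. The groups were well apart, and the difference of -0.73 on the log2 scale (standard error 0.17, limma adjusted p = 0.14) passed the cut-off in all 18 alternatives, at -0.37 with the length trend removed and -0.83 without mKD libraries 1 and 3. *Sync*, for syncoilin, an intermediate filament protein that binds α-dystrobrevin, had 617, 738 and 666 in mKD and 1091, 833 and 905 in WT, a log2 fold change of -0.48 (standard error 0.14) that missed the threshold only without mKD libraries 1 and 3 (-0.34). *Sync* overlaps a gene on the other strand, and whether counting used strand is not given in the sources used here. *Plec*, for the cytoskeletal linker plectin, had 18089, 16779 and 17828 in mKD and 29642, 21009 and 25183 in WT. Its log2 fold change of -0.51 (standard error 0.14) went to -0.04 with the length trend removed and to 0.09 with the median transcript, so its direction is not settled, the call was lost without mKD libraries 1 and 3 (-0.58, unadjusted p = 0.052), and it overlaps another gene on its own strand.

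**Figure D4:**
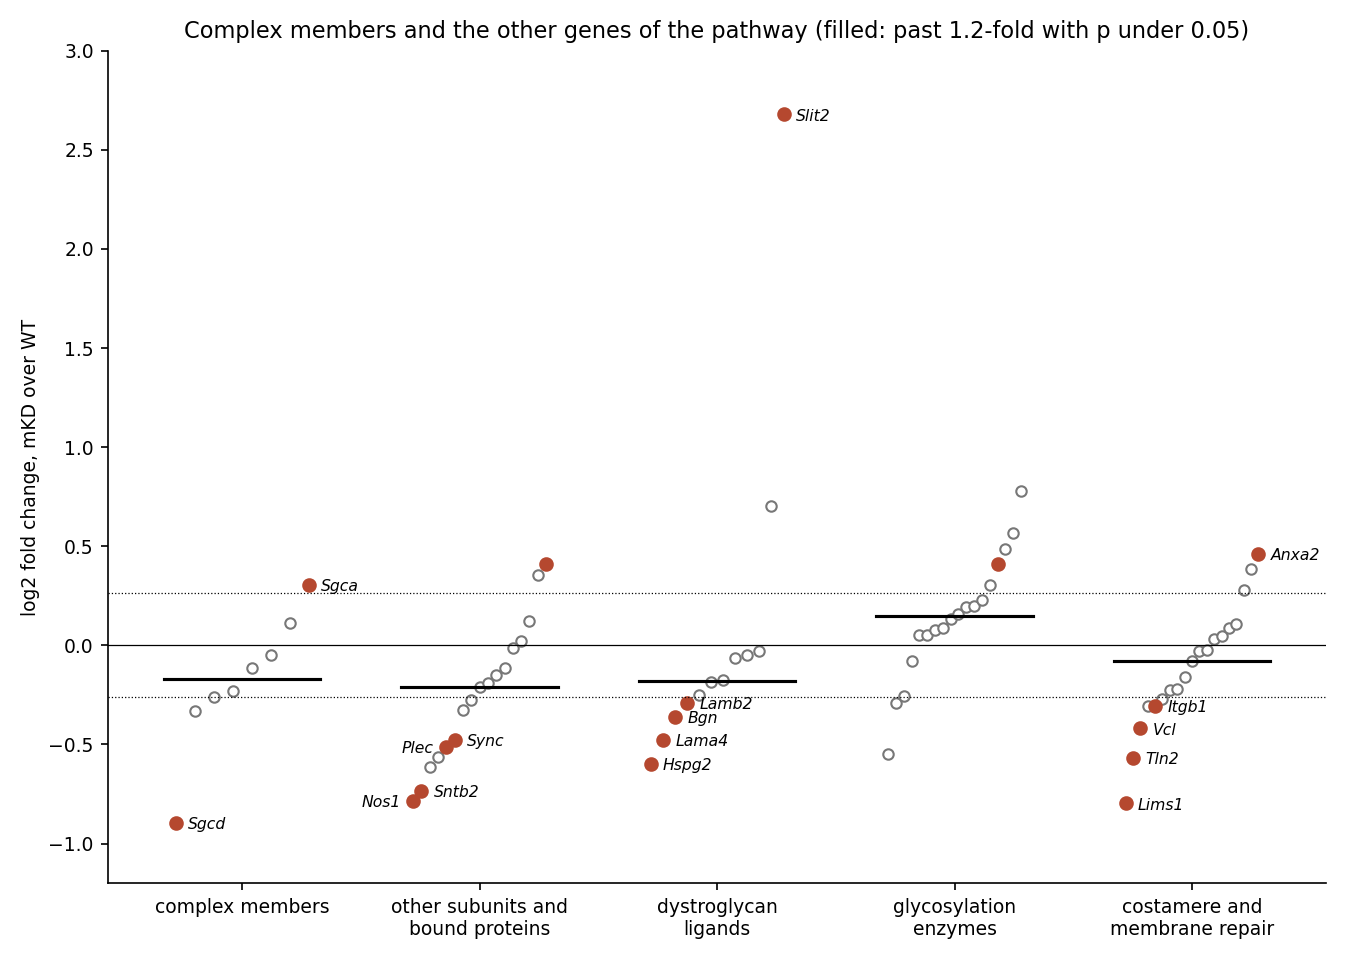
The log2 fold change, mKD over WT (y axis), of each tested gene in the 5 lists of the pathway, ordered by value within a list, with the list's median as a thick line and 1.2-fold as dotted lines. Filled points, most of them named, passed the 1.2-fold cut-off with unadjusted p under 0.05: 2 of 8 members, 5 of 17 bound proteins, 5 of 12 ligands, 1 of 18 glycosylation enzymes and 5 of 19 costamere and repair genes. Of all genes tested 17.8% passed.

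Outside the fibre, 12 of 14 dystroglycan ligands were tested, 1 rose and 4 fell, with a median log2 fold change of -0.18. *Hspg2*, for the heparan sulfate proteoglycan perlecan, had 3978, 3988 and 2976 normalised counts in mKD and 5552, 4633 and 6355 in WT (log2 fold change -0.60, standard error 0.16). *Lama4*, for the laminin α4 chain of vessel basement membranes, was at -0.48 (standard error 0.14), *Lamb2*, for laminin β2, at -0.29 (0.10), and *Bgn*, for the small proteoglycan biglycan, at -0.36 (0.12). With the length trend removed the list's median was 0.10, and 2 ligands passed upwards and 1 downwards. Of the 4 that fell only *Bgn* still passed (-0.44), *Hspg2* being at -0.14, *Lama4* at -0.27 and *Lamb2* at -0.11. The ligands past the cut-off upwards were *Slit2* (3.04) and, named after its values were seen, *Lama5* for the laminin α5 chain (0.37, unadjusted p = 0.034), which was at -0.03 as deposited and at -0.13 with the median transcript. Without mKD libraries 1 and 3 *Bgn* still passed (-0.50), while the calls of *Hspg2* (-0.46, unadjusted p = 0.081), *Lama4* (-0.40, unadjusted p = 0.12) and *Lamb2* (-0.19, unadjusted p = 0.27) were lost. *Slit2*, a secreted guidance protein, had 162, 12.1 and 62.9 in mKD and 4.75, 7.02 and 10.2 in WT, a log2 fold change of 2.68 (standard error 0.88). It was high in the mKD libraries with high nerve markers and was 0.71 without libraries 1 and 3, where the call was lost, as it was without mKD library 1 (1.85), mKD library 3 (2.52) or WT library 1 (2.44). The call of *Lamb2* was lost without mKD library 1 (-0.28), mKD library 3 (-0.26) or WT library 2 (-0.27), and that of *Bgn* without mKD library 2 (-0.29) or WT library 1 (-0.29). *Lama2*, for the laminin α2 chain of the fibre's own basement membrane, was looked at after its values were seen: it had 852, 847 and 863 in mKD and 952, 1078 and 1025 in WT, and its log2 fold change of -0.25 (standard error 0.10, unadjusted p = 0.044) is within 1.2-fold.

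The enzymes that build the sugar chain of α-dystroglycan were a further list. Of 19 listed, 18 were tested, 1 rose and 0 fell (0 also among those with an unadjusted p under 0.05 in limma), with a median log2 fold change of 0.15 (0.08 with the length trend removed). Among 19 other costamere and membrane repair genes, all tested, 1 rose and 4 fell, with a median of -0.08 (0.03 with the length trend removed, 1 higher and 3 lower). *Vcl*, for vinculin, which links integrins to actin at the costamere, had 1408, 1435 and 1628 in mKD and 2032, 1992 and 1943 in WT (log2 fold change -0.42, standard error 0.10). It was at -0.27 with the length trend removed and still passed, while with the median transcript the call was lost (-0.22, limma unadjusted p = 0.052). *Tln2*, for talin 2, had 3304, 3504 and 3930 in mKD and 6119, 5406 and 4481 in WT (-0.57, standard error 0.14), and was at -0.16 with the length trend removed. *Itgb1*, for integrin β1, was at -0.30 (standard error 0.13) with overlapping libraries, and *Lims1*, for the integrin adaptor PINCH1, at -0.80 (standard error 0.31), with mKD library 1 far below the rest at 416. The *Itgb1* call was lost without each library in turn except WT library 3 (-0.35 to -0.21), and the *Lims1* call without any of the WT libraries (-0.89 to -0.75). *Lims1* was at -0.40 without mKD library 1 (unadjusted p = 0.041) and at -1.07 without mKD library 2. *Anxa2*, for the membrane repair protein annexin A2, had 940, 830 and 826 in mKD and 716, 626 and 550 in WT (0.46, standard error 0.14). Without mKD libraries 1 and 3 *Vcl* (-0.47) and *Tln2* (-0.59) still passed, while the calls of *Itgb1* (-0.38, unadjusted p = 0.11), *Lims1* (-0.25, unadjusted p = 0.25) and *Anxa2* (0.40, unadjusted p = 0.11) were lost.

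Over the 4 lists beyond the members, 16 of 66 genes tested passed the cut-off, 4 higher and 12 lower. That is 24.2%, where 17.8% of all genes tested passed, 8.31% higher and 9.51% lower. With the length trend removed 13 passed (19.7%, where 10.5% of all genes did), of which 9 were among the 16. Without mKD libraries 1 and 3 the count was 6, or 9.09%, near the 9.68% of all genes, and 5 of these were among the 16 (*Nos1*, *Sntb2*, *Bgn*, *Vcl* and *Tln2*). At the neuromuscular junction, where utrophin gathers, the 10 markers summed to 4394 to 4911 normalised counts in mKD and 4205 to 4801 in WT, 2 rose and 1 fell. *Musk*, the receptor kinase that organises the junction, was among those that rose, with 298, 233 and 297 in mKD and 165, 145 and 200 in WT (log2 fold change 0.70, standard error 0.18, and 0.47 without mKD libraries 1 and 3, where the call was lost), while *Chrne*, for the adult acetylcholine receptor subunit, was at 0.03 and *Colq*, which anchors acetylcholinesterase, at -0.15.

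**Figure D5:**
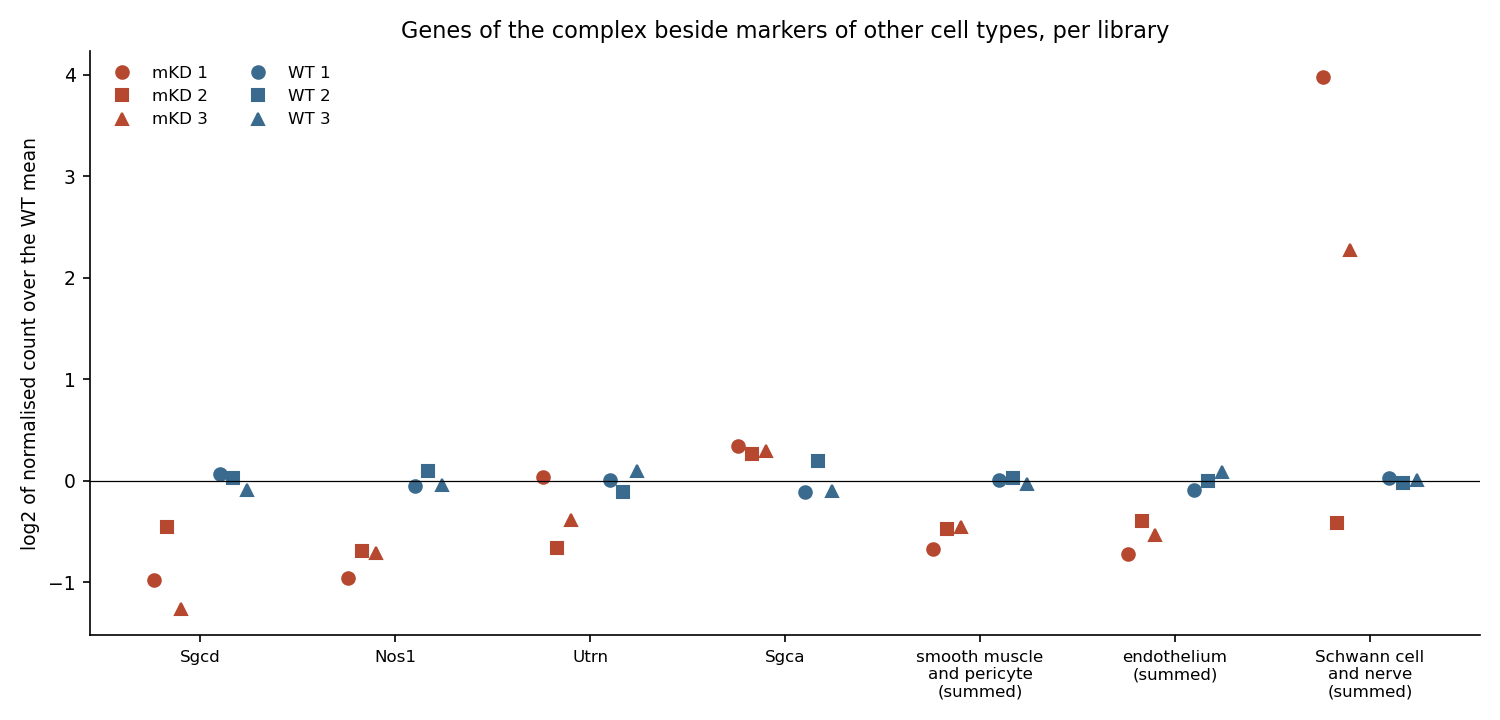
The log2 of each library's normalised count over the WT mean (y axis) for 4 genes of the complex and its bound proteins and for the summed markers of 3 other cell types, with mKD libraries in red left of WT libraries in blue and a symbol for each replicate number. *Nos1* is low in all 3 mKD libraries, *Utrn* is level with WT in mKD library 1, and the Schwann cell and nerve sum is 3.97 and 2.27 above the WT mean in mKD libraries 1 and 3 and -0.42 in library 2.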

How the data were processed

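TruSeq stranded mRNA libraries were made from total RNA of whole muscle. The authors analysed the reads in Partek Flow 9.0.20.0622 with DESeq2 and deposited a signal per gene and library, the read count divided by 1 factor per library. The processing notes of the submitters name GRCm38 (mm10); aligner and counter: not given in the sources used here. Their fold changes and test columns in the same table were not used. Division by each library's smallest positive value gave whole reads for all values (within 1e-04); these reads served the filter (edgeR 4.0.16 filterByExpr) and the alternatives with edgeR and DESeq2 1.42.0.

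The main test was limma 3.58.1 (R 4.3.3) with a trend on log2(value + 1), with a single genotype term and p-values adjusted after Benjamini and Hochberg over 12322 genes; the added 1 understates the change of low genes. P-values measure the spread between 3 mice per genotype, 1 library each; depth per library is given in the report. Exact permutation tests were two-sided over 10 splits. Scripts were tested on simulated data. Coordinates and transcript lengths are from GENCODE M21, where 99.7% of the table's identifiers were found, 86.3% with an equal version.

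The 8 members and 13 other lists were chosen with earlier results of these data known. Named are all members, *Tet3*, *Sgce*, *Sgcz* and *Dtnb*, each gene of the other pathway lists past 1.2-fold with unadjusted p under 0.05 (at most 6 per list), the first 3 markers of each cell type, and the 5 genes most like *Dmd* and most like *Utrn*; some genes under this rule are left out here. Alternatives were pseudocounts of 0.5 and 4, no filter, a mean count of 50, TMM and upper-quartile scaling, edgeR, DESeq2, removal of the length trend (lowess span 0.3), a replicate block and leaving out each library. Leaving out mKD libraries 1 and 3 together was chosen after seeing the data; the spread of that fit comes from the WT libraries and is taken to hold for the single mKD library too.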

Additional observations from a re-analysis of the deposited data

How the results depend on the processing

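Of the genes tested, 2196 passed 1.2-fold with unadjusted p under 0.05. The count was 1294 with the length trend of the longest transcript removed, 1193 without mKD libraries 1 and 3, an alternative chosen after seeing the data, and 1467 to 2304 without each library in turn. At an adjusted p under 0.05 limma called 2 genes, 0 with the length trend removed (1294 at the 1.2-fold cut-off), 0 to 4 without each library and 4 without mKD libraries 1 and 3, while on the recovered reads DESeq2 called 535 and edgeR 2 (2182 and 2223 by the 1.2-fold rule). Of the 8 members 2 passed, 1 with the length trend removed, 1 without mKD libraries 1 and 3, and 1 to 2 without each library. Of the other pathway genes 16 passed, 6 without mKD libraries 1 and 3 and 12 to 18 without each library.

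The replicate numbers share no source in the labels and did not deviate together (Pearson's r across genes 0.055, -0.051 and -0.076 for the 3 numbers). With the replicate block limma passed 1742 genes (14.1%) by the 1.2-fold rule, none (0) by adjusted p, and 1 member, *Sgca* being lost (unadjusted p = 0.065).

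Signs turned with the length trend removed for *Dmd* (0.20), *Utrn* (0.085), *Dag1* (0.067) and *Dtna* (0.17), and with the median transcript for *Dag1* (0.10), *Dtna* (0.021) and *Plec* (0.091). Without each library in turn *Dtna* ran from -0.16 to 0.013, positive only without WT library 1. Pseudocount, filter, scaling, edgeR and DESeq2 changed no direction or 1.2-fold call of the 8 members and 5 further subunits and bound proteins. The mean ratio of *Utrn* to *Dmd* per kilobase of transcript was 0.331 in mKD and 0.337 in WT. The causes of these changes were not tested. With 3 mice per genotype, the 95% interval of every member reached past 1.2-fold, so a change of that size could not be told from none where a member did not pass.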

Other observations

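The ratio of *Sgce* to *Sgca*, looked at after its values were seen, was 0.040 ± 0.003 in mKD and 0.039 ± 0.004 in WT (SD, n = 3 each).

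The genes whose pattern over the 6 libraries was most like that of *Dmd*, by the root-mean-square difference of centred log2 values among 9949 genes, were *Dusp3* (0.048), *4930430F08Rik*, *Capza1*, *Nck2* and *Cand2* (0.058). Those most like *Utrn*, among 8601 genes, were *Smo* (0.057), *Sdc3*, *4930402H24Rik*, *Dgcr2* and *Plscr4* (0.078). *Smo* had 147, 86.4 and 119 normalised counts in mKD and 149, 131 and 156 in WT, low in mKD library 2 as *Utrn* was.

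Markers of other cell types not set beside a result above were as follows. Adipocyte markers (*Adipoq*, *Plin1*, *Cidec* and 4 more) summed to 5939 to 9676 in mKD and 4258 to 4790 in WT, 2 of 7 rose, and WT library 3 had *Adipoq*, *Plin1*, *Cidec*, *Lep* and *Retn* at 0. Fibroblast markers (*Pdgfra*, *Dcn*, *Lum* and 5 more) summed to 7778 to 11216 in mKD and 9110 to 13074 in WT, and 1 of 8 fell. Satellite cell markers (*Pax7*, *Myf5*, *Myod1* and 2 more) summed to 525 to 580 in mKD and 412 to 583 in WT, and macrophage markers (*Adgre1*, *Cd68*, *Csf1r* and 4 more) to 343 to 454 in mKD and 360 to 550 in WT, with no marker of either list past the cut-off.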
